A study of Mus musculus with 12 samples.

Results

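Cultured organoids derived from the mouse small intestine were compared with freshly isolated villi of the same 3 parts of the intestine, duodenum, jejunum and ileum. The comparison was defined by the tissue label of each library and takes 6 of the 12 libraries of the series, 3 of organoids and 3 of villi, with 1 library of each tissue per origin. The other 6 libraries are freshly isolated crypts, 2 per origin, and served as a reference for levels in fresh crypt tissue. The organoids had been cultured for 12 weeks. All animals were mice, and the labels name no strain, genotype, age or treatment and do not say whether libraries come from separate or pooled animals, or how the cultures were grown. Because there was 1 library per tissue and origin, the 3 origins served as the replicates of organoids and of villi, and anything shared by all libraries of a tissue, such as the day or mode of preparation, cannot be told apart from the tissue itself. The comparison asks which functions of the mature enterocyte are low in the cultures and which functions of the crypt they hold.

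The lining of the small intestine renews itself from stem cells at the base of the crypts. Wnt signals keep these stem cells dividing, and Paneth cells beside them secrete antimicrobial peptides and growth signals. Daughter cells leave the crypt, stop dividing and mature into absorptive enterocytes on the villus, which carry the digestive enzymes and transporters of the brush border, or into goblet, enteroendocrine and tuft cells. A villus also holds a connective tissue core and many intraepithelial lymphocytes, while an organoid in culture holds epithelium without them.

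Messenger RNA was selected by its poly(A) tail and read as 50-bp reads, and the deposited level of a gene is its RPKM, the reads per kilobase of exon scaled to library size. Totals implied by the values were 10829828 to 18591819 reads in organoids, 12118586 to 13094383 in villi and 5268480 to 10275855 in crypts, so that a single read of a 2-kb transcript was worth 0.0269 to 0.0462 RPKM in an organoid library. Differences below are differences of log2(RPKM + 1), organoids minus villi, from a limma fit over all 12 libraries with terms for tissue and origin. On this scale the change of a weakly expressed gene comes out smaller than its ratio of RPKM. A gene was called past an adjusted p of 0.05. Values of the 3 origins are always given in the order duodenum, jejunum, ileum, with crypts as the lowest, median and highest of 6 libraries. The crypt libraries numbered 2 stood apart from those numbered 1: of 189 tested enterocyte genes, 177 were higher in library 2 in duodenum, 165 in jejunum and 172 in ileum, with median log2 differences of 1.65, 1.47 and 1.52. The same counts were not made over all genes. The median log2 ratio of a whole library to the mean of all 12 was -0.20, 0.05 and 0.07 in libraries 1. In libraries 2 it was 0.48, 0.10 and 0.27. Reads in the transcripts used made up 44.3%, 48.6% and 52.3% of the implied total in libraries 1. They made up 65.6%, 60.1% and 67.6% in libraries 2. Comparisons with crypts are therefore given with and without the 3 libraries numbered 2.

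In the organoid libraries the level of a gene also moved with the composition of its transcript. Over 8 equal bins of GC content the median log2 difference between organoids and villi ran from 1.10 in the bin of lowest GC to -0.81 in the bin of highest GC, and over bins of exon length it ran from 1.29 in the shortest to 0.05 in the longest. The difference between villi and crypts ran from -0.32 to -0.04 over the GC bins, and all 3 organoid libraries showed the fall with GC content. Over the length bins it lay at -0.53 in the shortest and between -0.26 and -0.06 in the others, so that villi were also lower for the shortest genes. The fall with length differed among the organoid libraries and was smallest in the jejunal one. Relative to the crypt mean, the shortest bin stood at 1.11, 0.44 and 0.95 in duodenal, jejunal and ileal organoids. The longest bin stood at -0.44, 0.18 and -0.30. The tests were repeated after a correction for GC content and exon length, which was chosen after seeing the data, and corrected values are given beside a number of the results. How much of any difference comes from this trend was not tested.

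**Figure D1:**
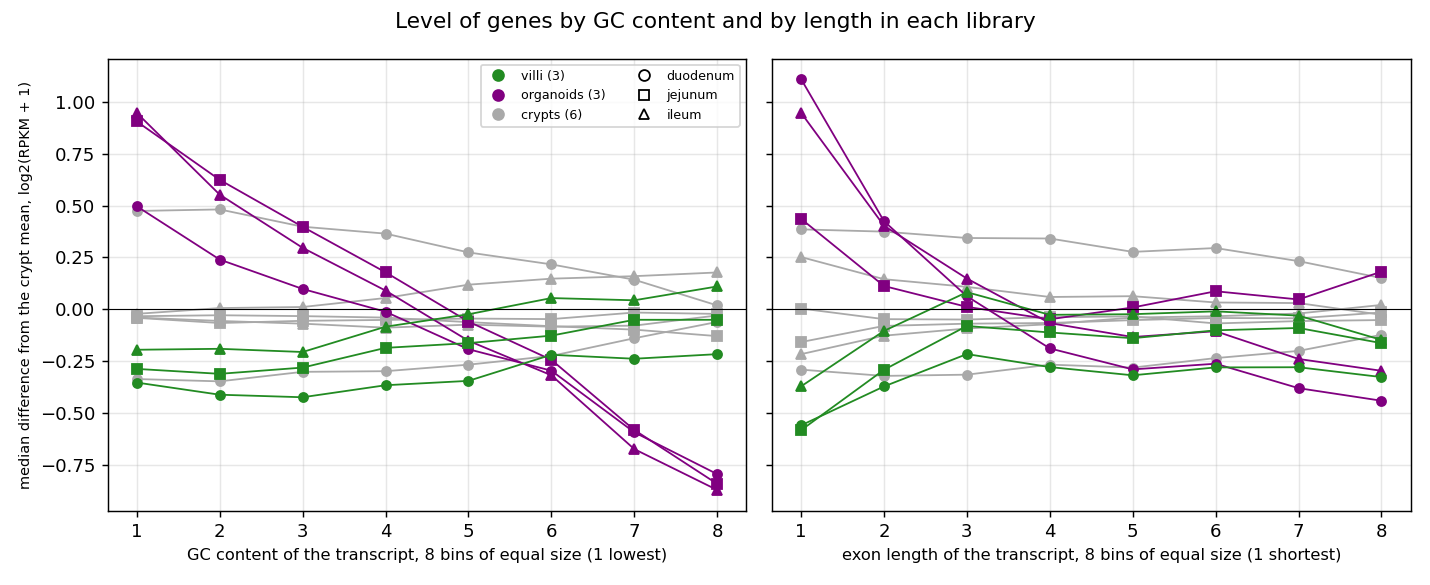
Median level of genes relative to the crypt mean, as a difference of log2(RPKM + 1), in 8 bins of transcript GC content (left) and of exon length (right), with 1 line per library. The 3 organoid lines fall from left to right in the GC panel, while the villus lines rise slightly.

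Organoids and villi differed in most expressed genes. Of 10886 genes tested, 7065 (64.9%) were called, 4112 (37.8%) higher and 2953 (27.1%) lower in organoids, and the median difference over all genes was 0.26. The 3 organoid libraries all lay above the 3 villus libraries for 4582 genes (42.1%) and all below for 3308 (30.4%). After the GC and length correction 6609 of 10796 genes (61.2%) were called, 3381 (31.3%) higher and 3228 (29.9%) lower, of which 4918 had been called in the same direction without the correction and 125 in the opposite direction. When each library was scaled by its median ratio, the median over all genes moved from 0.26 to -0.02 and the share of higher genes among the calls from 58.2% to 48.9%. Against this background, 112 of 189 tested genes on lists of enterocyte functions were lower and 16 higher (median -1.92), and 107 of 160 on lists of crypt functions were higher and 22 lower (median 1.56). The corrected counts were 130 lower and 14 higher for the enterocyte lists and 105 higher and 22 lower for the crypt lists. The crypt lists include goblet, enteroendocrine and tuft cell genes, which were not all higher in crypts than in villi. Against crypts, villi had 12 of 18 tuft cell genes higher and 1 lower, and 9 and 4 of 23 enteroendocrine genes. Goblet cell products had 3 and 6 of 14, and all genes tested 2359 and 3574 of 10886. In bulk RNA, fewer cells of a type and less RNA per cell cannot be told apart, here and in every result that follows.

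Marker genes placed the libraries with their labels. The brush border enzymes Enpp7 and Lct and the MHC class II gene H2-Ab1 were high in villi and at or near 0 in organoids. Ang4 and Mmp7, products of Paneth cells, were high in organoids and low in villi. Their positions in the deposited tables, on the mouse build mm9, are chromosome 11, 118849501 to 118854154 (Enpp7), chromosome 1, 130181340 to 130224894 (Lct), chromosome 17, 34400184 to 34406354 (H2-Ab1), chromosome 14, 52383566 to 52393264 (Ang4) and chromosome 9, 7692110 to 7699415 (Mmp7). Each spans the transcript of the gene with the longest exons.

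**Figure D2:**
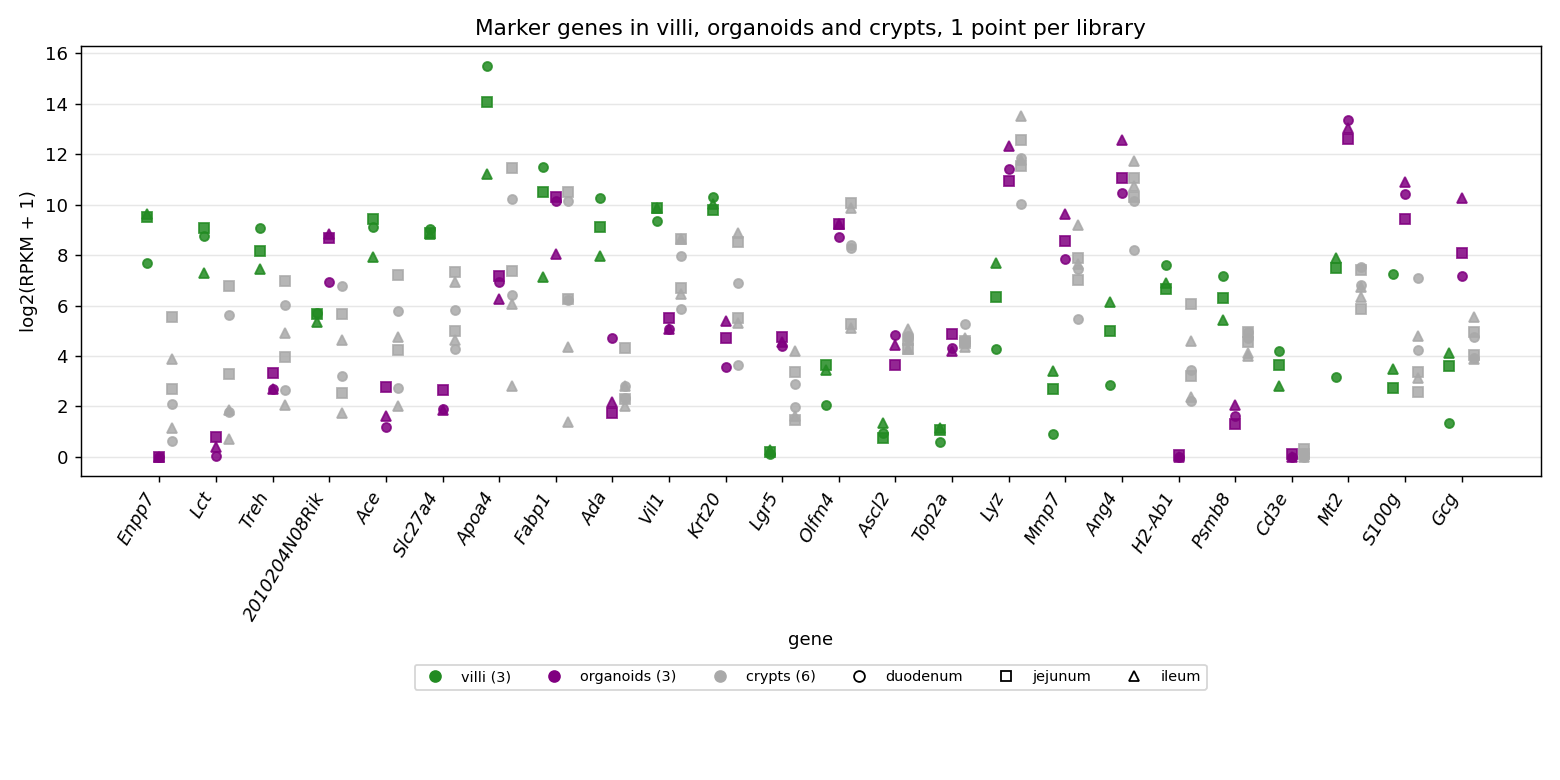
Levels of 24 marker genes as log2(RPKM + 1), with 1 point per library, in villi, organoids and crypts (color) of duodenum, jejunum and ileum (shape). From Enpp7 to Krt20 most organoid points lie below the villus points, with 2010204N08Rik above and Fabp1 overlapping, and from Lgr5 to Ang4 and from Mt2 to Gcg they lie above.

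Lactase was close to absent from organoids and trehalase was lower than in villi, while sucrase-isomaltase was not. Of 11 tested genes of sugar digestion and uptake, 6 fell and 2 rose (median -1.65). Lct, the lactase of the brush border, was at 428, 531 and 157 RPKM in villi and at 0.0300, 0.724 and 0.306 RPKM in organoids (log2 difference -7.96, SE 0.99, limma adjusted p = 1.69e-05). Crypts held 0.616, 5.63 and 108 RPKM. No organoid library reached the lowest crypt library except the jejunal one, and the groups were far apart. Treh, the trehalase, was at 534, 286 and 172 RPKM in villi and at 5.52, 8.96 and 5.47 RPKM in organoids, a difference of -5.31 (SE 0.93, limma adjusted p = 0.000234), and was not called against crypts (-1.52, limma adjusted p = 0.132). Pck1, a control point of glucose synthesis, fell from 60.3, 138 and 42.8 RPKM to 0.882, 1.52 and 1.08 RPKM. G6pc, which releases free glucose, was also lower, but its call was lost in 7 of the alternative settings. Slc5a1, the sodium-driven glucose transporter, was lower by a smaller margin, at 29.1, 66.0 and 59.6 RPKM against 269, 230 and 175 RPKM.

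The 2 sugar genes that went the other way were 2010204N08Rik, now named Sis, and Fbp1. Sis, the sucrase-isomaltase, was at 121, 407 and 454 RPKM in organoids, 51.3, 50.4 and 39.7 RPKM in villi and 2.30, 16.1 and 108 RPKM in crypts. Its organoid values lay above all villus values, by 2.57 (SE 1.03, limma adjusted p = 0.0416), but the call was lost under 10 settings, the GC and length correction among them (1.77, limma adjusted p = 0.16). Fbp1, fructose bisphosphatase, rose from 22.7, 17.5 and 12.6 RPKM in villi to 78.2, 90.8 and 113 RPKM in organoids (2.37, SE 0.37, limma adjusted p = 9.48e-05).

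Most genes of peptide digestion were lower in organoids. Of 20 tested genes for peptidases and amino acid transporters, 17 fell and 0 rose, with a median of -3.18, and 18 had all organoid libraries below all villus libraries. Ace, a dipeptidase of the brush border, was at 552, 681 and 241 RPKM in villi and 1.29, 5.88 and 2.06 RPKM in organoids (-6.95, SE 0.86, limma adjusted p = 1.71e-05). Naaladl1, a further peptidase, was at 253, 797 and 2383 RPKM in villi and 0.124, 13.5 and 22.2 RPKM in organoids. The villus level climbed towards the ileum, and every organoid library stayed below the lowest villus library. Ggt1, which cleaves glutathione, fell from 343, 304 and 391 RPKM to 1.32, 4.15 and 2.51 RPKM. Slc6a19, the main transporter of neutral amino acids, fell from 206, 292 and 386 RPKM to 1.82, 10.6 and 2.80 RPKM, and Slc7a8, which passes amino acids across the basolateral membrane, from 54.6, 86.5 and 42.0 RPKM to 1.35, 3.13 and 1.58 RPKM. The peptide transporter Slc15a1, at 1.51, 3.93 and 1.67 RPKM in organoids against 149, 193 and 217 RPKM in villi, belonged to the same group and was named after its values were seen.

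Enzymes that act on dietary sphingomyelin and phosphate esters were the most reduced list. All 7 tested members fell, with a median of -4.42. Enpp7, the alkaline sphingomyelinase of the brush border, was at 205, 737 and 784 RPKM in villi and listed at 0 in all 3 organoid libraries (-8.94, SE 0.80, limma adjusted p = 2.00e-06), the lowest value of any gene tested. Crypts held 0.554, 4.39 and 45.7 RPKM. Alpi, the intestinal alkaline phosphatase, was at 762, 573 and 633 RPKM in villi and 63.0, 10.7 and 7.24 RPKM in organoids, with the duodenal culture highest. Enpp3, a nucleotide pyrophosphatase, and Nt5e, the 5'-nucleotidase, were below 1 RPKM in every organoid library and at 11.3 to 206 RPKM and 12.6 to 35.4 RPKM in villi.

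The starts of Lct and Enpp7 are shown because these genes gave the largest losses among digestive enzymes, and because members of the GATA family are known regulators of lactase. The sequences are the 250 bases before the start of each gene in RefSeq on GRCm38.p6, a later build than that of the deposited tables, read 5' to 3' on the strand of the gene, with each match to AGATAA on either strand in capitals. Lct lies on the reverse strand at chr1:128328319-128328568 and Enpp7 on the forward strand at chr11:118987931-118988180.
Lct: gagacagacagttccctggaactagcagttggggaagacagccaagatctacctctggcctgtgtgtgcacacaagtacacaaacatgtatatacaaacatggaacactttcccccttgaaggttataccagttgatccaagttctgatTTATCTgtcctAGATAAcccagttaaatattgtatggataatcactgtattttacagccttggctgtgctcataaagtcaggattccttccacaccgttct
Enpp7: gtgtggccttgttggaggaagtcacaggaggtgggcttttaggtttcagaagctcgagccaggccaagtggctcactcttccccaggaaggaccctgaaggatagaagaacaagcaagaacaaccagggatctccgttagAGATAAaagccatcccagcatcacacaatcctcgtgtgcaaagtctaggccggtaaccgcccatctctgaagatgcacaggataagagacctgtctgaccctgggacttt
Lct held 2 matches, which began 101 and 90 bases before the start, and Enpp7 held 1, which began 110 bases before it. Of 32851 windows of this length, 9.99% held the motif. Of enterocyte list genes with a promoter entry, a match was held by 15 of 88 (17.0%) that were lower in organoids and 5 of 13 (38.5%) that were higher. A list gene was counted once, for a match in any of its windows, so shares of genes and of windows are not in the same unit. A match is a run of letters and does not show that a factor binds there. Gata4 was at 47.3, 46.2 and 19.5 RPKM in villi and 19.2, 18.2 and 7.68 RPKM in organoids, a difference of -1.27 that was not called (limma adjusted p = 0.0539). It was called with the replicate block (limma adjusted p = 0.00671) and was -0.14 after the GC and length correction.

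Fat absorption was reduced at most steps, with the fatty acid-binding protein Fabp1 as an exception in level. Of 25 tested genes, 16 fell and 1 rose, the thiolase Acat2 (median -2.94). For 18 genes all organoid libraries lay below all villus libraries. Slc27a4, which brings fatty acids into the cell, was at 524, 467 and 462 RPKM in villi and 2.76, 5.31 and 2.59 RPKM in organoids (-6.78, SE 0.65, limma adjusted p = 3.01e-06). Apoa4, an apolipoprotein of chylomicrons, was at 46871, 17208 and 2368 RPKM in villi and 122, 142 and 76.4 RPKM in organoids (-6.81, SE 1.24, limma adjusted p = 0.00033). The villus level was highest in the duodenum, while the organoid levels lay close together. Npc1l1, which takes up cholesterol, fell by 5.16 on the log2 scale, Soat2, which esterifies it, by 4.02, Dgat1, which completes triglycerides, by 3.56 and Abcg8, which exports sterols, by 3.21. Fabp1 was at 1131, 1263 and 266 RPKM in organoids and 2900, 1449 and 137 RPKM in villi, overlapping values with a difference of -0.20 (SE 1.18, limma adjusted p = 0.888). After the GC and length correction the difference was -2.80 (limma adjusted p = 0.0498).

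Of 20 tested genes of mineral and vitamin absorption, 13 fell, 1 rose and 6 were not called (median -2.12). With the replicate block 2 were higher, and 3 with the organoid and villus libraries alone. S100g, the calcium-binding protein calbindin-D9k, was at 1378, 692 and 1932 RPKM in organoids, 152, 5.69 and 10.1 RPKM in villi and 5.02, 13.5 and 136 RPKM in crypts (5.77, SE 0.78, limma adjusted p = 3.13e-05). In villi the level stood out in the duodenum, in organoids it was high at every origin, and no organoid library overlapped with a villus or crypt library. Its corrected difference was 3.31. By contrast Slc46a1, the folate transporter, was at 548, 184 and 42.4 RPKM in villi and 3.90, 2.55 and 3.06 RPKM in organoids. Slc34a2, a phosphate transporter, was at 103, 212 and 492 RPKM in villi and at 0, 2.27 and 2.19 RPKM in organoids. Slc39a4, the zinc importer, fell by 4.90 on the log2 scale and Amn, which anchors the receptor for vitamin B12, by 4.47. The receptor for vitamin D, Vdr, was among the 13 genes that fell.

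The bile acid-binding protein Fabp6 was at a low level in ileal organoids, while the export genes Osta and Ostb were lower than in villi and still present. Of 9 tested genes of bile acid handling, 5 fell and 0 rose (median -1.17). Fabp6, the bile acid-binding protein of ileal enterocytes, was at 29.6, 18.4 and 24599 RPKM in villi and 0, 0.556 and 4.12 RPKM in organoids (-6.93, SE 1.30, limma adjusted p = 0.000404), and crypts held 5.48, 33.3 and 14643 RPKM. The ileal culture was the highest of the 3 organoid libraries and still lower than duodenal villi. Osta and Ostb, now Slc51a and Slc51b, which together export bile acids, fell by 3.33 and 4.72 on the log2 scale. Their levels in ileal organoids were 35.0 and 24.1 RPKM against 1056 and 729 RPKM in ileal villi. The uptake transporter Slc10a2 was at 43.5 RPKM in ileal villi and 1.69 RPKM in ileal organoids and was below 0.5 RPKM in duodenum and jejunum of both tissues, so that it was not tested. Nr0b2, a bile acid-induced repressor, fell by 2.09 on the log2 scale, and Baat, which conjugates bile acids, by 0.86, a call lost in 3 settings that leave out a library.

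Of 9 tested genes of purine breakdown and nucleoside uptake, 5 fell and 1 rose (median -4.22). Ada, adenosine deaminase, was at 1237, 552 and 246 RPKM in villi and 25.2, 2.32 and 3.53 RPKM in organoids (-6.24, SE 0.66, limma adjusted p = 5.43e-06). The organoid and the villus levels were each highest in the duodenum. Xdh, which makes uric acid, fell by 4.99 on the log2 scale, and the sodium-driven nucleoside transporters Slc28a1 and Slc28a2 by 4.71 and 4.22. Gda, guanine deaminase, was the fifth gene that fell and was named after its values were seen. Slc29a1, an equilibrative nucleoside transporter, rose from 1.48, 2.10 and 1.93 RPKM in villi to 35.5, 32.6 and 35.8 RPKM in organoids (3.66, SE 0.25, limma adjusted p = 7.06e-07), and crypts held 20, 23.2 and 29.2 RPKM.

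Genes of drug and lipid metabolism included some that rose and some that fell. Of 34 tested genes of xenobiotic metabolism, 7 rose and 5 fell (median -0.17), and after the GC and length correction 5 rose and 11 fell (median -0.81). Without the correction 22 were not called, and both shares were below those over all genes tested, 37.8% higher and 27.1% lower. Cyp2c29, a cytochrome P450, was at 35.2, 64.4 and 54.6 RPKM in organoids and 3.08, 1.09 and 0.185 RPKM in villi (4.56, SE 0.41, limma adjusted p = 2.05e-06). Cyp2c66, a related cytochrome, was at 139, 81.4 and 58.8 RPKM in organoids and 16.9, 8.05 and 3.49 RPKM in villi, and reads of such close relatives cannot be assigned with certainty. Gstm1, a glutathione transferase, rose by 2.75, and 2210023G05Rik, now Ces2g, a carboxylesterase, by 2.84. Nr1i2, the nuclear receptor that senses foreign compounds, fell from 45.7, 42.6 and 44.5 RPKM to 10.4, 13.9 and 11.3 RPKM. Cyp3a11, a major drug-metabolising cytochrome of enterocytes, was at 343, 148 and 133 RPKM in villi and 19.8, 56.9 and 28.1 RPKM in organoids, groups that did not overlap. Its difference of -2.54 was not called (limma adjusted p = 0.0924), but it was with the replicate block (limma adjusted p = 9.26e-05) and after the correction (-3.74, limma adjusted p = 0.0231).

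Among 19 tested genes of fat oxidation and ketone synthesis, 9 fell and 4 rose (median -0.74). Acot1, an acyl-CoA thioesterase, rose by 2.45, and Hadhb and Acaa2, of mitochondrial beta-oxidation, rose as well, though the corrected Hadhb difference of 0.34 was not called (limma adjusted p = 0.199). Angptl4, an inhibitor of lipoprotein lipase, fell by 3.04 on the log2 scale, Acaa1b, a peroxisomal thiolase, by 1.94 and Pdk4, which restrains glucose oxidation, by 1.92.

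The structural genes of the brush border fell as a group. All 16 tested genes of the microvillus cytoskeleton were lower (median -3.71), also after the correction, and 15 had groups that did not overlap. Vil1, villin, which bundles actin in microvilli, was at 650, 932 and 932 RPKM in villi, 32.6, 44.0 and 32.5 RPKM in organoids and 57.3, 175 and 398 RPKM in crypts (-4.48, SE 0.64, limma adjusted p = 4.86e-05). All 3 organoid libraries were also below the lowest crypt library. Myo1a, the myosin that ties the actin core to the membrane, was at 330, 392 and 448 RPKM in villi and 16.7, 28.1 and 14.3 RPKM in organoids. BC040758 and Mupcdh, now Cdhr2 and Cdhr5, the protocadherins that link microvillus tips, fell by 5.22 and 4.72 on the log2 scale. Slc9a3, the sodium-proton exchanger of the brush border, fell by 3.41 and Eps8l2, an actin-capping protein, by 3.39.

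**Figure D3:**
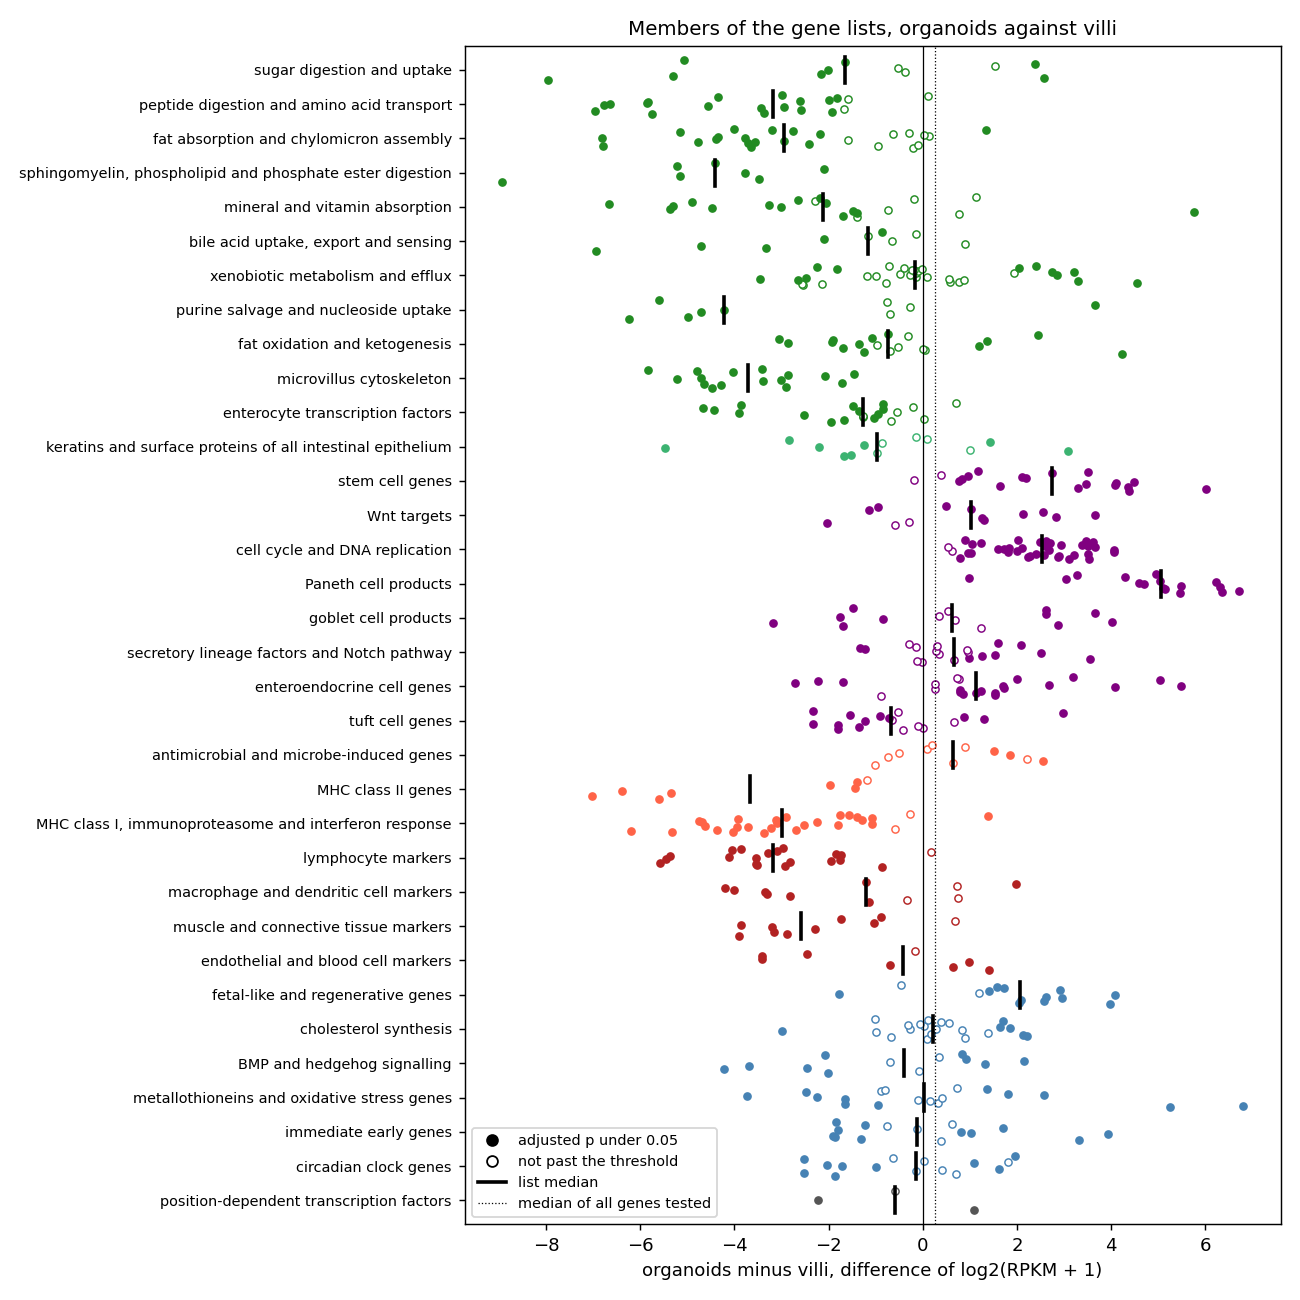
Difference of log2(RPKM + 1), organoids minus villi, of each tested member of the gene lists, with 1 point per gene, filled where the limma adjusted p was under 0.05, and a bar at the median of the list. All 16 microvillus genes lie to the left of 0 and all 16 Paneth cell products to the right.

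Transcription factors of enterocytes were lower by smaller amounts. Of 20 tested factors, 14 fell and 0 rose (median -1.27), against 12 and 1 after correction (median -0.98). Klf4, which marks cells that have left the cycle, was at 99.3, 69.5 and 92.3 RPKM in villi and 5.09, 4.98 and 4.40 RPKM in organoids (-3.90, SE 0.39, limma adjusted p = 3.68e-06). Maf fell by 4.44 on the log2 scale, Esrra, a regulator of mitochondrial genes, by 3.87 and Gata5 by 2.51. Hnf4a, a nuclear receptor that drives enterocyte genes, was at 112, 141 and 181 RPKM in villi and 40.8, 48.6 and 23.6 RPKM in organoids (-1.95, SE 0.38, limma adjusted p = 0.000533). Its corrected difference was -1.04 and was still called. Cdx2, the homeodomain factor of intestinal identity, fell by 1.27 on the log2 scale, but its corrected difference of -0.41 was not called (limma adjusted p = 0.244). Without ileal villi the Cdx2 call was lost as well.

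The summed level of 13 genes of the intestinal epithelium, Krt20 among them, was 10174 to 15104 RPKM in organoids against 7791 to 13299 RPKM in villi. The sum does not stand for each gene. Of these 13, 6 fell and 2 rose (median -0.97), against 8 and 2 after the correction. Tacstd1, now Epcam, the adhesion molecule of epithelial cells, was at 287, 232 and 378 RPKM in organoids, 768, 819 and 1322 RPKM in villi and 168, 281 and 496 RPKM in crypts. Cdh1, E-cadherin, fell by 1.52 on the log2 scale. The keratins split. Krt20, the keratin of mature cells, fell from 1253, 874 and 1044 RPKM to 11, 24.9 and 41.1 RPKM (-5.48, SE 0.99, limma adjusted p = 0.000307), and Krt18, of simple epithelia, rose from 126, 120 and 180 RPKM to 1194, 905 and 1560 RPKM (3.08, SE 0.43, limma adjusted p = 3.84e-05). Lgals4, a lectin, was the other gene that rose.

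Stem cell genes were high in every organoid library. Of 19 tested, 17 rose and 0 fell, with a median of 2.74, and 16 had groups that did not overlap. Lgr5, the receptor that marks dividing crypt stem cells, was at 20.1, 26.0 and 22.5 RPKM in organoids, 0.0973, 0.133 and 0.193 RPKM in villi and 1.77, 4.64 and 17.2 RPKM in crypts (4.38, SE 0.57, limma adjusted p = 2.43e-05). Organoid levels were close to each other and above the highest crypt library. Olfm4, a secreted stem cell product, was at 420, 600 and 608 RPKM in organoids and 3.17, 11.4 and 9.91 RPKM in villi (6.02, SE 1.15, limma adjusted p = 0.000463). Ascl2, the transcription factor of Lgr5 cells, was at 27.5, 11.5 and 20.7 RPKM in organoids, 0.924, 0.696 and 1.52 RPKM in villi and 18.3, 24.5 and 32.2 RPKM in crypts. The water channel Aqp4 rose by 4.48, the membrane protein Prom1 by 4.07, Igfbp4, which binds insulin-like growth factors, by 3.50 and the Myc target Cdca7 by 3.47. Rnf43 and Tert, at differences of -0.18 and 0.38, were the 2 that did not pass. After the correction both passed (0.82 and 0.98, limma adjusted p = 0.0367 and 0.00163), and Bmi1, a Polycomb gene, did not (0.08, limma adjusted p = 0.702).

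Targets and components of Wnt signaling did not move as a block. Of 13 tested, 8 rose and 3 fell (median 1.02). Myc, a driver of growth, rose from 0.891, 1.69 and 2.06 RPKM in villi to 32.1, 27.2 and 31.8 RPKM in organoids (3.65, SE 0.34, limma adjusted p = 2.43e-06). The adhesion receptor Cd44 rose by 2.82, and the cyclins Ccnd2 and Ccnd1 by 2.56 and 2.13. Ccnd1 was at 16.3, 24.8 and 24.5 RPKM in organoids and 32.4, 42.6 and 65.6 RPKM in crypts, so that every organoid library was below every crypt library. Sp5, a direct Wnt target, fell from 11.1, 6.07 and 3.82 RPKM in villi to 0.881, 0.667 and 0.900 RPKM in organoids (-2.04, SE 0.34, limma adjusted p = 0.000169), and its corrected difference was -0.94. Apcdd1 and Ctnnb1, a component of the pathway, were the other 2 that fell. The corrected Apcdd1 difference of 0.03 was not called (limma adjusted p = 0.943).

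Genes of the cell cycle rose almost without exception. Of 38 tested, 36 rose and 0 fell (median 2.53), and 37 had all organoid libraries above all villus libraries. Top2a, the topoisomerase of dividing cells, was at 19.0, 28.1 and 17.5 RPKM in organoids, 0.512, 1.08 and 1.20 RPKM in villi and 19.5, 22.7 and 37.5 RPKM in crypts (3.53, SE 0.31, limma adjusted p = 1.73e-06). Gins2, of the replication helicase, was at 57.4, 28.6 and 43.5 RPKM in organoids and 1.10, 1.81 and 1.83 RPKM in villi. Nusap1, of the mitotic spindle, rose by 3.61, Tyms, which makes thymidylate, by 3.50 and the spindle factor Tpx2 by 2.48. The summed level of the list was 698 to 1102 RPKM in organoids, 53.7 to 123 RPKM in villi and 578 to 1360 RPKM in crypts, so organoids lay within the range of fresh crypts.

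Paneth cell products were the most raised list. All 16 tested members rose, with a median of 5.07, and 13 had groups that did not overlap. After the correction 14 rose (median 3.42), while Defcr4 had no GC value and 1810030J14Rik was not called. Ang4, an antimicrobial ribonuclease, was at 1417, 2153 and 6020 RPKM in organoids, 6.15, 30.8 and 69.5 RPKM in villi and 296, 1480 and 3399 RPKM in crypts (6.71, SE 0.56, limma adjusted p = 1.41e-06). Mmp7, the protease that activates defensins, was at 228, 378 and 788 RPKM in organoids and 0.870, 5.52 and 9.49 RPKM in villi (6.34, SE 0.51, limma adjusted p = 1.31e-06). For both genes the order of the origins was the same in organoids and villi, lowest in duodenum and highest in ileum. Lyz, now Lyz1, the Paneth cell lysozyme, was at 2715, 1973 and 5091 RPKM in organoids and 18.6, 79.8 and 204 RPKM in villi, and Pla2g2a, a secreted phospholipase, rose by 5.09. Defcr4, a defensin, was at 96.1, 231 and 976 RPKM in organoids, 0, 0.908 and 21.6 RPKM in villi and 9.25, 163 and 928 RPKM in crypts. Defcr24, which carries the same values as Defcr6, was at 35408, 36730 and 65988 RPKM in organoids and 158, 874 and 1462 RPKM in villi. Defensins are near-identical copies, and reads cannot be divided among them with certainty.

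Several of the genes with the largest rise belong to none of the lists. 1190003M12Rik, now Gkn3, a gastrokine, was at 552, 94.4 and 67.1 RPKM in organoids and 0.770, 0.492 and 0 RPKM in villi (6.79, SE 0.63, limma adjusted p = 2.43e-06), with the duodenal culture highest. Ttr, transthyretin, was at 496, 136 and 202 RPKM in organoids and 1.45, 1.11 and 4.24 RPKM in villi. Tmed6, of vesicle transport, 1190002H23Rik, now Rgcc, and Nme4, a mitochondrial nucleoside diphosphate kinase, rose by 6.46, 6.0 and 5.77. On the other side Pmp22, a membrane protein of cell junctions and myelin, was at 681, 478 and 870 RPKM in villi and 0, 0.388 and 1.05 RPKM in organoids (-8.86, SE 1.22, limma adjusted p = 3.69e-05). Susd2 and 2010109I03Rik, now Ly6m, fell by 6.85 and 7.70 on the log2 scale. Against crypts, Gkn3, Ttr, Tmed6, Rgcc and Nme4 were higher in organoids as well, by 2.62 to 3.44 (2.29 to 3.36 without the crypt libraries numbered 2). Pmp22 was lower than in crypts by 2.84 (limma adjusted p = 0.0387), but this call was lost with the replicate block (limma adjusted p = 0.206) and after the GC and length correction (-2.22, limma adjusted p = 0.137). Without the crypt libraries numbered 2 the Pmp22 difference was -1.31 (limma adjusted p = 0.00252).

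Goblet cell products had 5 of 14 higher and 5 lower, near the shares over all genes tested (37.8% and 27.1%). Spink4, a secreted protease inhibitor, was at 10012, 6697 and 15486 RPKM in organoids and 328, 725 and 1005 RPKM in villi (4.03, SE 0.61, limma adjusted p = 7.72e-05). Ccl9, a chemokine, rose by 3.66, and Klk1, a kallikrein, and Gcnt3, which branches mucin glycans, by 2.61 each. Agr2, which folds mucins, was higher by 2.87, but the corrected 0.73 was not called (limma adjusted p = 0.06). The 5 lower genes, named after their values were seen, were 1810010M01Rik (now Zg16), Capn9, Clca3 (now Clca1), Muc13 and Bcas1. Zg16, a lectin of mucus, was at 901, 809 and 1224 RPKM in organoids and 8063, 6242 and 13360 RPKM in villi.

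Secretory lineage factors included the early endocrine factor Neurog3 at a raised level. Of 19 tested genes of the secretory lineage and the Notch pathway, 7 rose and 2 fell (median 0.67), against 13 and 1 after the correction (median 1.35). Neurog3 was at 21.4, 11.1 and 14.4 RPKM in organoids, 0.198, 0.304 and 0.643 RPKM in villi and 2.78, 4.24 and 9.51 RPKM in crypts (3.55, SE 0.33, limma adjusted p = 2.44e-06). Every organoid library was above the highest crypt library. Creb3l4 rose by 2.51, Hes1, the repressor that Notch induces, by 2.08 and Foxa3 by 1.54. The ligands Dll4 and Dll1 were lower by 1.34 and 1.23, and the corrected Dll4 difference of -0.38 was not called (limma adjusted p = 0.138).

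Hormone genes of enteroendocrine cells were mostly raised, and the correction reduced their number. Of 23 tested, 15 rose and 3 fell (median 1.12), against 9 and 3 after the correction (median 0.51). Gcg, the precursor of glucagon-like peptides, was at 145, 269 and 1224 RPKM in organoids, 1.54, 11 and 16.3 RPKM in villi and 13.7, 20.5 and 46.1 RPKM in crypts (5.49, SE 0.60, limma adjusted p = 6.84e-06). The ileal culture was highest. Tac1, the precursor of substance P, was at 98.8, 44.8 and 72.5 RPKM in organoids and 0.443, 1.74 and 1.44 RPKM in villi. Ghrl, ghrelin, was at 324, 155 and 113 RPKM in organoids and 57.8, 24.9 and 13.3 RPKM in villi, highest in the duodenum in each. Tph1, which makes serotonin, rose by 2.0 and Rfxdc1, now Rfx6, a factor of endocrine cells, by 1.72. The 3 that fell, named after their values were seen, were secretin (Sct), Pyy and neurotensin (Nts). Nts was at 3.29, 30.2 and 166 RPKM in organoids and 54.4, 89.4 and 149 RPKM in villi, overlapping values that were both highest in the ileum. Chga, a general marker of these cells, was at 20.2, 15.1 and 21.5 RPKM in organoids and 31.9, 49.2 and 28.1 RPKM in villi, a difference of -0.88 that was not called (limma adjusted p = 0.0515) but was with the replicate block (limma adjusted p = 0.0315).

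Of 18 tested tuft cell genes 9 fell and 3 rose (median -0.68), against 11 and 1 after the correction. The summed level over 19 genes was higher in organoids, at 346 to 575 RPKM against 116 to 180 RPKM in villi, and most of the organoid sum came from Cd24a (mean 378 RPKM), which Paneth and stem cells also carry. Trpm5, the cation channel of taste signaling, was at 1.10, 1.87 and 1.51 RPKM in organoids and 7.95, 9.05 and 5.93 RPKM in villi (-1.79, SE 0.26, limma adjusted p = 4.86e-05). Avil, an actin-binding protein, and Siglec5, now Siglecf, fell by 1.80 and 2.34 on the log2 scale. Dclk1, at 0.612, 1.27 and 1.44 RPKM in organoids and 1.74, 2.14 and 1.45 RPKM in villi, was not called (limma adjusted p = 0.0919), but it was after the correction (-0.70, limma adjusted p = 0.0122). Cd24a rose by 2.97. Ptgds2, now Hpgds, was higher by 0.87, but its corrected difference had the opposite sign (-1.07, limma adjusted p = 0.00216).

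MHC class II genes, which present antigen to helper T cells, were largely absent from organoids, where 10 of 12 were below 0.5 RPKM in every library. Of 8 tested, 7 fell and 0 rose (median -3.66), and the groups did not overlap for any of the 8. H2-Ab1 was at 195, 100 and 117 RPKM in villi, 0, 0.0459 and 0 RPKM in organoids and 3.62, 9.17 and 65.3 RPKM in crypts (-7.03, SE 0.74, limma adjusted p = 5.19e-06). Cd74, the invariant chain, was at 88.2, 89.9 and 157 RPKM in villi and 0.457, 0.266 and 0.205 RPKM in organoids. H2-Aa and H2-Eb1 fell by 5.6 and 5.35 on the log2 scale, and H2-Oa was listed at 0 in all organoid libraries. H2-DMa, which loads peptides, stayed at 6.74, 5.37 and 6.50 RPKM, and the protease Ctss at 35.2, 31.7 and 63.4 RPKM. Ctss was the tested gene that was not called (-1.19, limma adjusted p = 0.06), but it was with the replicate block (limma adjusted p = 0.00114) and after the correction (-2.61, limma adjusted p = 0.000385), so that all 8 were called lower there. Markers of the other cells that can carry these genes were lower in organoids at the same time, as given below, and their part in the result was not tested.

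MHC class I genes, the immunoproteasome and interferon-induced genes were lower together. Of 28 tested, 25 fell and 1 rose, Irgm, now Irgm1 (median -3.0). H2-T3 was at 179, 144 and 159 RPKM in villi and 5.55, 8.54 and 6.56 RPKM in organoids (-4.37, SE 0.36, limma adjusted p = 1.41e-06). H2-Q2 fell by 6.20 on the log2 scale, though reads of class I genes cannot be divided with certainty among their copies. Psmb8, a catalytic subunit of the immunoproteasome, was at 141, 77.0 and 42.5 RPKM in villi, 2.11, 1.45 and 3.14 RPKM in organoids and 15.1, 23.7 and 30.1 RPKM in crypts (-4.63, SE 0.36, limma adjusted p = 1.07e-06). Organoids were below all crypt libraries too. Tap2, of the peptide transporter, fell by 3.71 and Tapbp, which loads peptides onto class I molecules, by 3.95. B2m, the light chain of class I, was at 1590, 765 and 1584 RPKM in organoids and 2657, 1520 and 1661 RPKM in villi and was not called (-0.60, limma adjusted p = 0.401), but it was after the correction (-3.08, limma adjusted p = 0.000103).

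A pair of interferon-induced genes was chosen after their values were seen to show the start of genes of this group. Isg15, a ubiquitin-like protein, was at 125, 43.2 and 35.3 RPKM in villi and 2.23, 0.689 and 0.929 RPKM in organoids, and Ifit1, which binds foreign RNA, at 21.3, 10.9 and 7.88 RPKM in villi and 0.490, 0.571 and 0.550 RPKM in organoids. The 250 bases before their starts are given as above, at chr4:156200819-156201068 on the reverse strand for Isg15 and chr19:34640639-34640888 on the forward strand for Ifit1, with matches on either strand to GAAA, any 2 bases and GAAA, the core of the interferon response element, in capitals.
Isg15: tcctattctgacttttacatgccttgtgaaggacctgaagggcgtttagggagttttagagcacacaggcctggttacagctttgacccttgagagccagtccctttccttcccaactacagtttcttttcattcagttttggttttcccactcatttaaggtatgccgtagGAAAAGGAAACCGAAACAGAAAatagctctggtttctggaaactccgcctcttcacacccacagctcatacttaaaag
Ifit1: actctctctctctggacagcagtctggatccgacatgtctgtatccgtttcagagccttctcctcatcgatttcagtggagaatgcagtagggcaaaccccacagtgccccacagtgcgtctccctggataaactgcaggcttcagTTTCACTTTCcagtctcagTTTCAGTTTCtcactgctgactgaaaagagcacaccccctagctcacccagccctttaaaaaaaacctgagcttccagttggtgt
Isg15 held 3 overlapping matches, which began 78, 72 and 66 bases before the start, and Ifit1 held 2, which began 104 and 85 bases before it. Among all windows of this length 2.98% held at least 1 match and 0.18% at least 2. Of the 20 genes of the list that fell and had a promoter entry, 7 (35.0%) held a match, counted by gene and not by window.

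Markers of cells other than epithelium were low in organoids, and to differing degrees in crypts. Of 20 tested lymphocyte genes 19 fell, and the summed level over 25 genes was 211 to 655 RPKM in villi, 5.35 to 11.1 RPKM in organoids and 6.66 to 18.6 RPKM in crypts. In organoids 11 of the 25 were at 0 in every library. Cd3e, a chain of the T cell receptor complex, was at 17.5, 11.4 and 6.09 RPKM in villi and 0, 0.0749 and 0 RPKM in organoids, and Gzma, a granzyme, at 109, 47.6 and 15.7 RPKM against 0, 0.0613 and 0 RPKM. The villus level of both fell from duodenum to ileum. Ptprc, carried by all leukocytes, fell by 0.86 on the log2 scale. Macrophage and dendritic cell genes had 7 of 11 lower and 1 higher, Cd14, with summed levels of 75.0 to 97.7 RPKM in villi and 23.3 to 39.6 RPKM in organoids. C1qc, of complement, was listed at 0 in all organoid libraries and at 6.81, 11.1 and 10.3 RPKM in villi. Muscle and connective tissue genes had 9 of 10 lower, with summed levels of 85.4 to 140 RPKM in villi and 7.48 to 11.4 RPKM in organoids. Acta2, smooth muscle actin, was at 9.05, 17.5 and 26.7 RPKM in villi and below 0.5 RPKM in organoids. Collagen Col1a1, the endothelial Pecam1 and the smooth muscle myosin Myh11 were too low in most libraries to be tested.

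**Figure D4:**
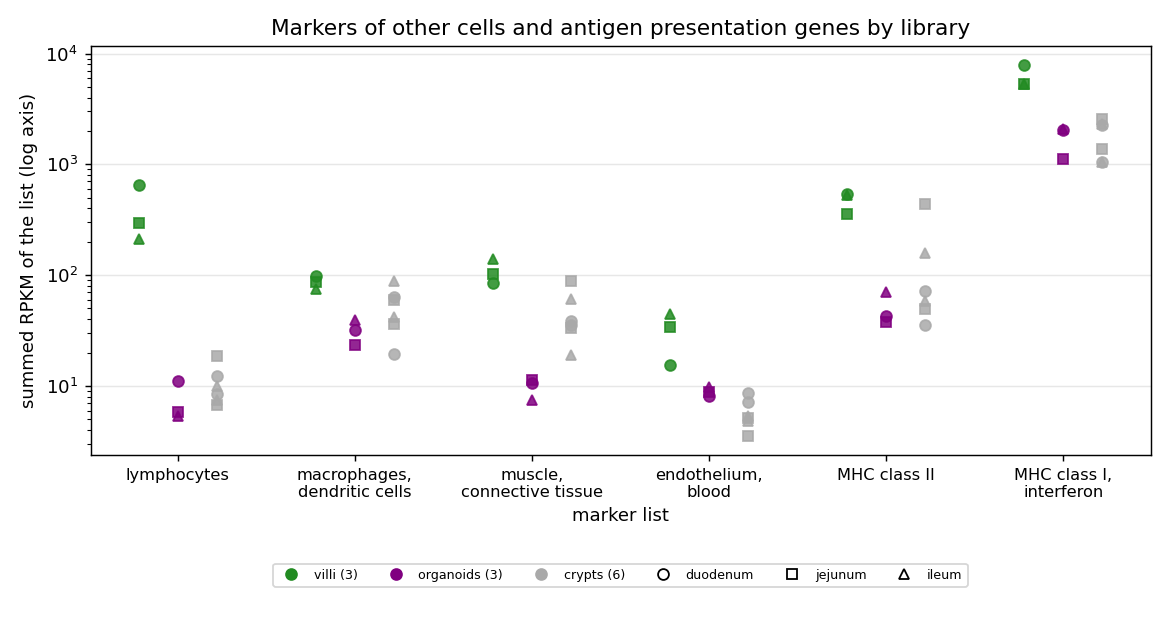
Summed RPKM (log axis) of the marker lists of lymphocytes, macrophages and dendritic cells, muscle and connective tissue, endothelium and blood, MHC class II and MHC class I with interferon-induced genes, with 1 point per library. Organoid points lie below the villus points in all 6 lists, and lymphocyte sums of crypts lie near those of organoids.

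Endothelial and blood genes had 4 of 8 lower and 3 higher, against 2 and 2 after the correction. Hba-a1, an alpha globin, was listed at 0 in all organoid libraries and at 4.92, 11.2 and 15.9 RPKM in villi. Lyve1 was higher in organoids, at 1.88, 3.57 and 5.59 RPKM against 0.322, 0.599 and 1.17 RPKM. Plvap was lower by 0.70, but its call was lost after the correction, where the difference was 0.27.

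Metallothioneins, small proteins that bind zinc and copper, were the most raised of the genes that respond to the environment. Mt1 was at 17816, 13787 and 17406 RPKM in organoids, 169, 634 and 735 RPKM in villi and 444, 554 and 641 RPKM in crypts (5.24, SE 0.55, limma adjusted p = 5.26e-06). Mt2 was at 10367, 6264 and 8383 RPKM in organoids and 8.10, 180 and 234 RPKM in villi (6.81, SE 0.90, limma adjusted p = 2.74e-05), the largest rise of any gene tested. Both also differed from crypts, by 4.91 and 6.21 (4.98 and 5.76 without the crypt libraries numbered 2), and remained raised after the correction, by 4.11 and 5.64. The start of Mt2 is shown because it leads the genes that rose. It lies at chr8:94172368-94172617 on the forward strand of GRCm38.p6 (RefSeq), with matches on either strand to TGCACNC or TGCGCNC, the core of the metal response element, in capitals.
Mt2: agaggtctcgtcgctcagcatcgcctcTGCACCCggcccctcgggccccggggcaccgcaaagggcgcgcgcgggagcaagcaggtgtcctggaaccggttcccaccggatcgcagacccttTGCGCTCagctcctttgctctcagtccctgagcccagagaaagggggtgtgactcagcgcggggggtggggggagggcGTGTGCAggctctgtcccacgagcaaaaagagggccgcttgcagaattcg
The 3 matches began 223, 128 and 50 bases before the start. At least 1 match was found in 21.4% of all windows of this length and at least 3 in 1.26%. Other genes of the oxidative stress list did not follow, since 5 of 18 rose and 6 fell. The sulfiredoxin Srxn1 fell by 3.73 on the log2 scale, the secreted peroxidase Gpx3 by 2.49 and the thioredoxin reductase Txnrd1 by 2.25, while Sod1, Gpx1 and Gpx2 were the other 3 that rose. After the correction 3 rose and 9 fell, without the calls of Sod1 (-0.05, limma adjusted p = 0.882) and Gpx2 (1.05, limma adjusted p = 0.0964).

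Genes known from fetal and regenerating epithelium were raised in number, less so after the correction. Of 14 tested, 11 rose and 1 fell, Il33 (median 2.06), against 7 and 1 after the correction (median 1.04). Il1rn, the antagonist of interleukin 1, was at 15.8, 16.5 and 35.5 RPKM in organoids and 0.0934, 0.191 and 0.673 RPKM in villi (4.09, SE 0.24, limma adjusted p = 3.61e-07). Ly6a was at 74.5, 30.7 and 150 RPKM in organoids, 2.31, 2.36 and 7.47 RPKM in villi and 0.522, 1.90 and 5.52 RPKM in crypts. All organoid libraries were above all crypt libraries. Anxa3 rose by 2.95 and Cyr61, now Ccn1, by 2.92. Anxa1 was higher by 2.08, but the corrected difference of 0.47 was not called (limma adjusted p = 0.314). Among antimicrobial genes that microbes induce, 3 of 11 were higher and 0 lower, against 2 and 2 after the correction. Reg3g, a lectin that kills Gram-positive bacteria, was at 1468, 2991 and 7976 RPKM in organoids and 207, 625 and 1312 RPKM in villi (2.56, SE 0.62, limma adjusted p = 0.00253), but the corrected difference of 0.55 was not called (limma adjusted p = 0.342). Lcn2 rose by 1.51 and kept its call with 0.51, and Saa3, at 0.02, did not.

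Signals that act along the crypt and villus axis gave a split result. Of 12 tested genes of BMP and hedgehog signaling, which favor differentiation, 5 fell and 4 rose. Id3, a direct target of BMP, was at 121, 85.1 and 124 RPKM in villi, 8.33, 2.20 and 5.63 RPKM in organoids and 34.7, 52.1 and 100 RPKM in crypts (-4.23, SE 0.39, limma adjusted p = 2.43e-06). Smad7 and Smad6, inhibitors that the pathway induces, fell by 3.70 and 2.46 on the log2 scale and Id1 by 2.02, while Ihh was the fifth that fell. For Id3, Id1, Smad6 and Smad7 the organoid levels were also lower than in crypts, by 1.70 to 3.27 on the log2 scale (1.37 to 2.85 without the crypt libraries numbered 2), though Smad6 was not called after the correction (-0.60, limma adjusted p = 0.0669). Bmp7 rose by 2.14, and Ptch1, Bmpr1a and Bambi were the other 3. After the correction Ihh, Bmpr1a and Bambi were not called (limma adjusted p = 0.0928, 0.393 and 0.0853). Immediate early genes, which respond within minutes to growth signals and to handling, were 5 higher and 6 lower of 15, against 2 and 7 with median-ratio scaling. Fosb was at 19.9, 26.7 and 10.1 RPKM in organoids, 0.890, 1.10 and 0.612 RPKM in villi and 75.4, 120 and 181 RPKM in crypts, and Egr1 at 64.4, 124 and 70.7, 5.59, 3.20 and 4.92, and 118, 174 and 190 RPKM. Organoids thus lay between the 2 fresh tissues for Fosb. For Egr1 the jejunal culture reached the lowest crypt value and the others lay below it. Junb and Klf6 fell by 1.87 and 1.85, and Jund by 1.90, though the corrected Jund difference of -0.65 was not called (limma adjusted p = 0.0561).

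Organoids were also set beside fresh crypts. In that comparison 5353 of 10886 genes (49.2%) were called, 2711 (24.9%) higher and 2642 (24.3%) lower in organoids, and without the 3 crypt libraries numbered 2 the counts were 6328 (58.1%), 3744 (34.4%) higher and 2584 (23.7%) lower. Without the ileal organoid library 3477 genes were called. The share of higher genes among the calls was 50.6%, and 35.0% with limma-voom on recovered reads. The organoid libraries are the same in both comparisons, so the 2 sets of differences are not independent. Of the crypt lists together, with goblet, enteroendocrine and tuft cell genes included, 41 of 160 genes were higher and 28 lower (median 0.13). Without the libraries numbered 2 the counts were 44 and 35. Paneth cell products had 2 higher and 0 lower of 16 (0 and 6 without), cell cycle genes 4 and 10 of 38 (8 and 10), and stem cell genes 5 and 2 of 19 (5 and 3). After the GC and length correction, with all 6 crypt libraries, these lists had 0 higher and 1 lower, 2 and 12, and 8 and 1. Enteroendocrine genes had 14 higher and 0 lower of 23 (15 and 0), with Gcg, Tac1 and Tph1 at 4.00, 3.89 and 2.65 (4.29, 4.08 and 2.79 without).

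The enterocyte lists depended on which crypt libraries were used. Of 189 genes, 44 were higher and 52 lower in organoids than in crypts (median -0.06), and without the crypt libraries numbered 2 there were 92 higher and 45 lower (median 0.70). For peptide digestion the counts went from 0 higher and 7 lower of 20 to 9 and 5, and for fat absorption from 6 and 4 of 25 to 16 and 4. Xenobiotic genes were higher in organoids than in crypts in both cases, 23 of 34 and 33 of 34, with 1 and 0 lower. Lists that were lower in organoids in both cases were the enterocyte transcription factors, with 14 of 20 lower in each, and the microvillus genes, with 10 and 9 of 16. After the GC and length correction (39.1% of all genes called against crypts, 19.9% higher and 19.2% lower) these were 9 of 20 and 7 of 16. Slc27a4, Myo1a and Slc7a8 were lower than in crypts, with differences of -3.53, -3.45 and -3.18, and of -2.49, -3.0 and -2.22 without the libraries numbered 2. Ggt1 and Naaladl1 were lower by smaller amounts without these libraries, with differences of -1.57 and -1.60 against -3.0 and -2.61. All 5 were called in both cases. Immediate early genes were 0 higher and 13 lower of 15 in both cases.

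**Figure D5:**
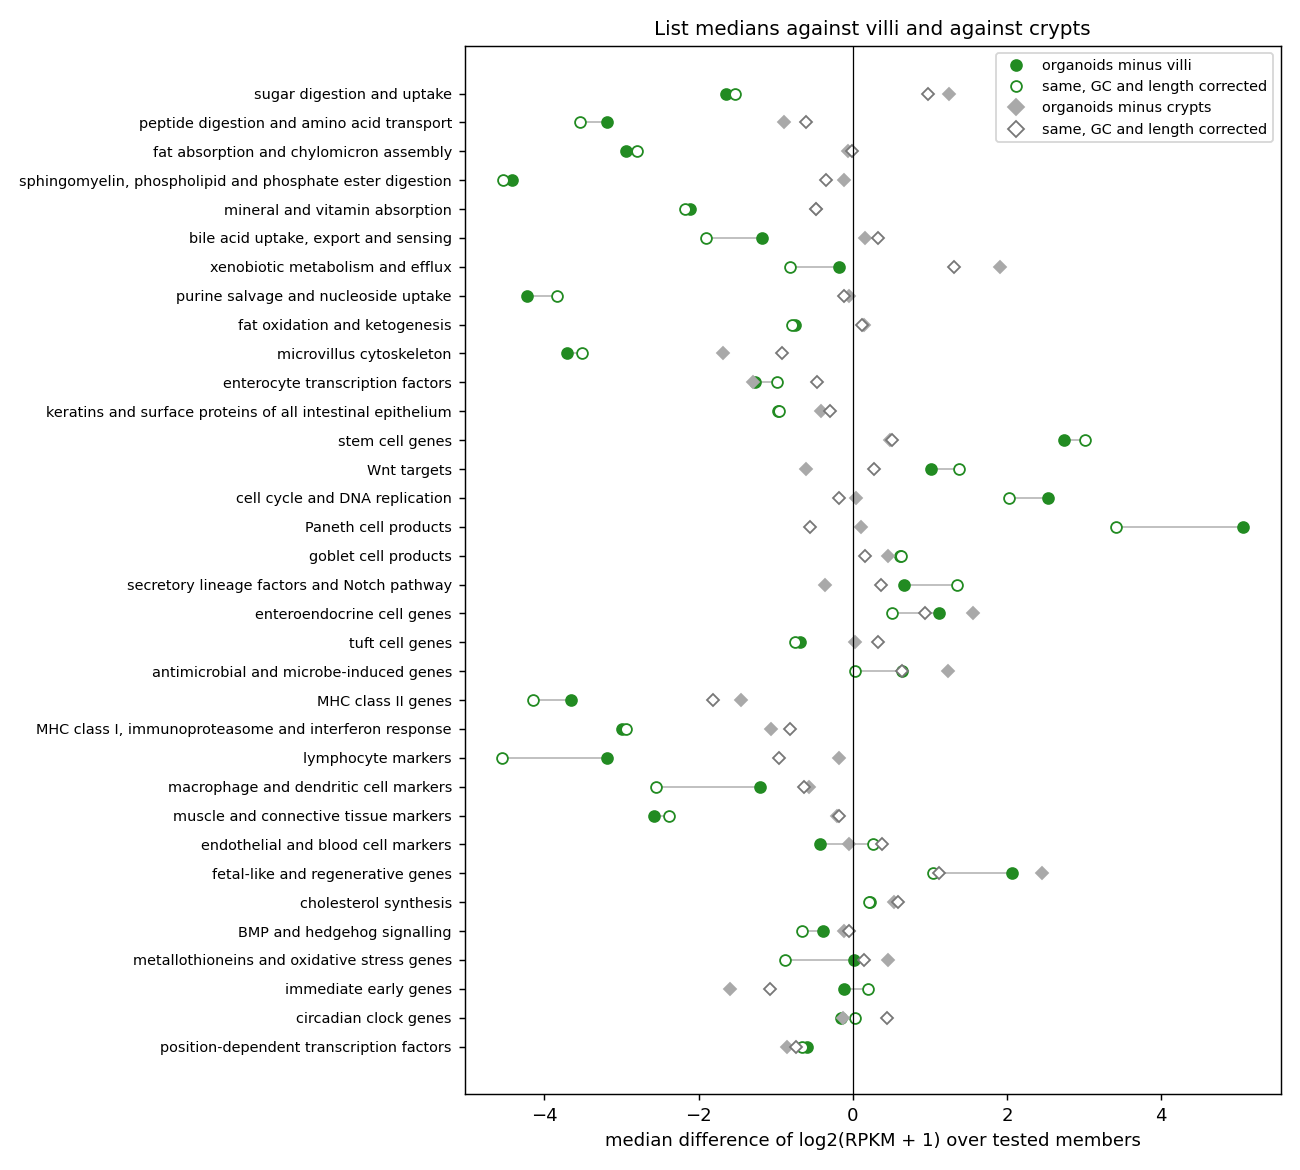
Median difference of log2(RPKM + 1) over the tested members of each list, for organoids minus villi (green circles) and organoids minus crypts (grey diamonds), as tested (filled) and after the GC and length correction (open). Green circles reach -4.42 for sphingomyelin and phosphate ester digestion and 5.07 for Paneth cell products. For these lists the filled grey diamonds lie at -0.11 and 0.11. In several other lists the grey diamond lies farther from 0 than the green circle. Examples are xenobiotic metabolism (1.90 against -0.17) and immediate early genes (-1.59 against -0.12).

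Finally, it was tested whether the difference between organoids and villi depended on the origin, as the ileal difference minus the duodenal one. With 1 library per tissue and origin the spread came from the crypt pairs alone (3 residual degrees of freedom). No gene was called by limma (0 of 10886, 0%), with 300 at an unadjusted p under 0.05 and 0 calls with limma-voom on recovered reads. The genes of smallest p were Folr1, Cst7 and Gm131 (now Cym) in 1 direction and Anxa10, BC026782 (now Cfhr2) and Psca in the other. Anxa10 was at 26.1, 2.72 and 1.83 RPKM in organoids and 0.187, 0 and 0.0673 RPKM in villi, and Cfhr2 at 28.9, 5.74 and 2.60 RPKM in organoids and 0 in villi. Psca, a surface protein known from stomach epithelium, was at 11.2, 1.56 and 1.01 RPKM in organoids and 0.0888, 0 and 0 RPKM in villi. All 3 were highest in the duodenal culture, which follows from picking them by the ileal minus duodenal difference.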

How the data were processed

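Poly(A) RNA was sequenced in 12 libraries on a SOLiD 4, per the labels' protocols, and aligned with BWA to mm9, per the submitters' processing notes. Not given in the sources used here: versions, gene models, strand use and the counting rule. Deposited by the authors were RPKM values for each transcript, per the file headers. Each of 19012 symbols was represented by its transcript of longest total exon length. Genes with RPKM of at least 0.5 in at least 3 of the 6 organoid and villus libraries were tested with limma 3.58.1 (R 4.3.3) and a mean-variance trend on log2(RPKM + 1), over all 12 libraries with tissue and origin as terms (7 residual degrees of freedom). All p-values are two-sided, with Benjamini-Hochberg adjustment across the tested genes. They measure the spread between these samples, which may be technical.

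At least 99.95% of values were whole multiples of 1 read within 0.02 of a read, so that limma-voom could be run on recovered reads as an alternative. GC content came from GENCODE vM21 transcripts, matched by RefSeq accession or else by symbol (99.2% of tested genes). The correction subtracts from each library the trend of its deviations from the gene means on splines of GC content and exon length (5 degrees of freedom each, robust fit with MASS 7.3.60.0.1). Values listed at 0 are shifted by it as well, so corrected counts of genes near 0 are to be read with care. The fit was run on simulated counts that held no origin effect, no shift of the crypt libraries numbered 2 and no GC or length trend. That run cannot say how the fit deals with these features. Crypt numbers were checked for pairing. The difference of library 2 and library 1 correlated across 10886 genes by 0.41 to 0.79 between origins, so the crypt numbers were taken as shared and entered as a replicate block in an alternative. Organoids and villi carry no numbers.

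Counts in list sentences are genes called by limma. Those against villi are to be read beside the shares over all genes tested, 37.8% higher and 27.1% lower. The 34 lists (670 of 688 entries matched), the members and the rules were chosen with earlier results of these data known. Named genes are the 12 per direction with the largest difference among called genes without overlap between groups and with a mean log2(RPKM + 1) of at least 3, up to 5 called members per list with the smallest p (up to 2 of the highest level where none was called), a set of named markers, and the 3 genes per direction with the smallest regional p. Genes named outside this rule to complete a small count, or to place a list, were chosen after their values were seen. Symbols are as deposited, with the current one beside an older one. Figures were drawn with matplotlib 3.10.9. Alternatives were other pseudocounts, filters, scalings, transcripts and library sets. A few genes counted in the lists are not reported here by name.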

Additional observations from a re-analysis of the deposited data

How the results depend on the processing

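The count of genes that differ between organoids and villi stayed within 1.5 times of 7065 under every alternative run. Which genes were called moved more. The GC and length correction kept 4918 of these calls and reversed 125, and with the replicate block added it kept 5178 and reversed 170. Leaving out 1 library at a time gave 6123 to 7513 genes, 3464 to 4383 higher and 2490 to 3130 lower, with 6070 to 7064 of the calls kept. With the replicate block, in which the shared crypt number is a further term, 7687 genes were called and all 7065 were kept. Against villi it added calls for Chga, Cyp3a11 and Gata4 among the genes named by rule and lost none of theirs. Of 190 called genes among 196 named ones, 170 were called under every alternative and 19 lost the call under at least 1. After the GC and length correction Ptgds2 reversed (-1.07 in all 3 forms of the correction) and Plvap reached 0.27. Without the 3 crypt libraries numbered 2 the count against crypts was 6328 (3744 higher). It was 3477 to 6123 when a library was left out, 1736 to 3494 higher and 1741 to 2755 lower, lowest without ileal organoids, and the share of higher genes among the calls was 35.0% with limma-voom against 50.6%. The regional test, 0 under the other alternatives run, gave 3 genes, all lower (3), with a pseudocount of 4, and 828 (408 higher, 420 lower) without a filter, of which 787 were below the filter and 664 at 0 in all crypt libraries. Leave-one-out fits gave 0 there, and could not be run without a duodenal or ileal organoid or villus library. Depth, and 1 library per tissue and origin, limit what can be seen for low genes.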

Other observations

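Of 15 tested genes of the circadian clock, 3 were higher and 6 lower in organoids than in villi. Over all genes tested 64.9% were called, 37.8% higher and 27.1% lower, so the number of calls does not set these genes apart. Npas2, a partner of the clock activator, was at 14.0, 12.9 and 16.2 RPKM in villi and 1.21, 2.26 and 1.58 RPKM in organoids, and Nr1d1, a clock repressor, at 61, 52.7 and 32.1 RPKM in villi and 9.88, 12.5 and 10 RPKM in organoids. Nfil3 and Cry2 fell by 2.53 and 1.71 on the log2 scale. Gm129, now Ciart, rose from 0.109, 0.112 and 0.118 RPKM in villi to 6.42, 1.89 and 2.76 RPKM in organoids (1.96, SE 0.32, limma adjusted p = 0.000137). The labels do not say at what time of day tissues and cultures were taken.

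Genes of cholesterol synthesis had 5 higher and 1 lower of 22 tested, against 4 and 3 after the GC and length correction or with median-ratio scaling, and 6 and 3 with the replicate block. In the main fit 16 were not called, and both shares were below the 37.8% higher and 27.1% lower of all genes. Fdft1, squalene synthase, was at 65.7, 41.1 and 53.8 RPKM in organoids and 3.52, 8.81 and 34.6 RPKM in villi, and Fdps at 55.5, 34.6 and 38.1 RPKM against 3.75, 6.51 and 25.3 RPKM. In villi both rose from duodenum to ileum, and in organoids they did not. Nsdhl, also higher by 1.84 on the log2 scale (limma adjusted p = 0.0115), lost its call without duodenal organoids (1.46, limma adjusted p = 0.0756), without duodenal villi (1.40, limma adjusted p = 0.0839) or without jejunal villi (1.59, limma adjusted p = 0.0588), and after the GC and length correction (1.18, limma adjusted p = 0.0714).

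Among factors that mark position along the gut, 3 of 16 were expressed enough to be tested. Osr2 was at 20.2, 46.8 and 116 RPKM in villi and 0.0540, 25.2 and 40.1 RPKM in organoids, so that the duodenal culture stood far below the other two. Onecut2 was at 9.91, 6.73 and 1.39 RPKM in organoids and 7.75, 1.29 and 0.0555 RPKM in villi, highest in the duodenum in each. Its call (limma adjusted p = 0.0371) was lost in 11 settings, the GC and length correction among them. Hoxb9, not tested, was at 2.39 RPKM in ileal organoids and 4.98 RPKM in ileal villi and at or near 0 in the other organoid and villus libraries.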
